A study of Mus musculus with 36 samples.

Results

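The Wnt ligands considered here are 8 of the 19 Wnt genes of the mouse, namely Wnt3, Wnt4, Wnt5a, Wnt6, Wnt7b, Wnt9b, Wnt10a and Wnt11. They were taken as a list of gene symbols, and all 8 were found among the 52636 genes listed in the count data. Each was measured by RNA-seq in 36 libraries of mouse intestinal organoids, epithelial cultures grown from crypts of the jejunum of 6 C57BL/6 mice. Every culture received an antibody, either control IgG or anti-Ptk7, which is directed against the transmembrane receptor Ptk7. Complete media + IgG is the commercial organoid medium. QCM + IgG and SCM + IgG hold medium conditioned by mouse embryonic fibroblasts, made quiescent by serum withdrawal in QCM or senescent by X-rays or doxorubicin in SCM. Wnt5a + IgG is complete media with recombinant Wnt5a protein. In SCM + anti-Ptk7 and Wnt5a + anti-Ptk7 the blocking antibody took the place of IgG, and complete media was analysed here with IgG alone. Each of the 6 conditions had 6 replicates.

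Wnt proteins are secreted signals that carry a lipid, added by the acyltransferase Porcn, and leave the cell with the carrier Wls. In canonical signaling a Wnt bound to a Frizzled receptor and Lrp5 or Lrp6 stabilizes β-catenin, which acts on genes through TCF and LEF factors. In noncanonical signaling, for which Wnt5a and Wnt11 are best known, Frizzled acts with co-receptors such as Ror2 and Ptk7 on the cytoskeleton, on cell polarity or on Ca2+. In the small intestine the epithelial ligand Wnt3 is made by Paneth cells beside the stem cells, and other Wnts come from the mesenchyme below the crypt, which is absent from purified epithelial organoids.

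Levels are given in CPM, a gene's count relative to the total of its library, scaled between libraries by the TMM method. A ligand with a mean under 0.5 CPM over the 36 libraries was taken as not detected. Totals ranged from 9581589 to 21029769 counts, so that a single count was worth between 0.0471 and 0.104 CPM and the limit of 0.5 CPM corresponded to between 4.796 and 10.6 counts. By this limit, 3 of the 8 ligands were detected. Wnt3 had a mean of 13.4 ± 4.34 CPM (SD, n = 36), Wnt10a of 1.13 ± 1.01 CPM and Wnt9b of 1.10 ± 1.10 CPM. The other 5 ligands were not detected, with means of 0.305 CPM for Wnt7b, 0.283 CPM for Wnt6, 0.106 CPM for Wnt5a, 0.0596 CPM for Wnt4 and 0.0559 CPM for Wnt11. Wnt3 held 6475 counts in all and no library at 0. Wnt10a and Wnt9b held 541 and 537 counts and were at 0 in 7 and 8 libraries, so that their values rest on few reads.

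**Figure D1:**
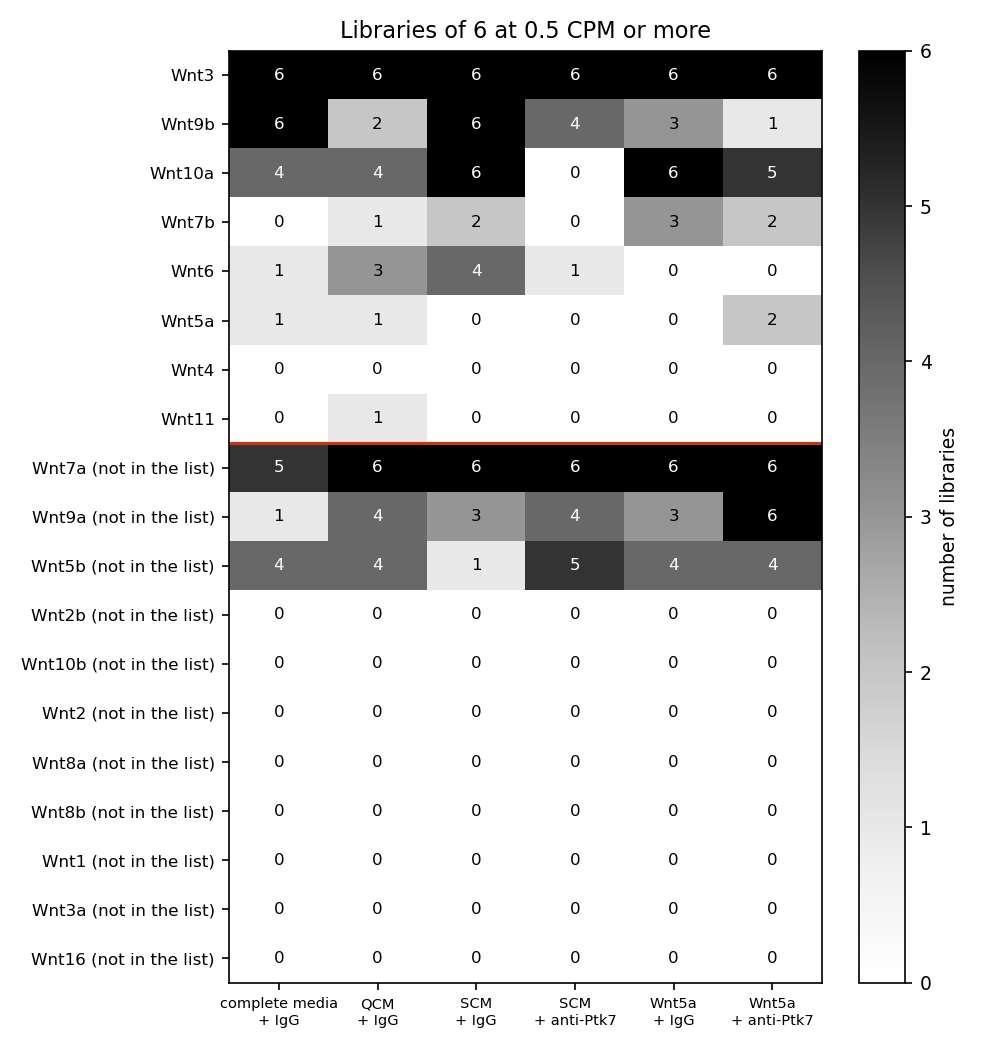
Number of the 6 libraries of each condition (columns) in which each of the 19 Wnt ligands (rows) reached 0.5 CPM, with darker shading for more libraries and the 8 listed ligands above the line. Wnt3 reached the limit in 6 of 6 libraries of every condition, whereas Wnt10a did so in 6 libraries of SCM + IgG and in 0 of SCM + anti-Ptk7.

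The 3 detected ligands lie in 2 gene pairs of the mouse genome (GRCm38). Wnt9b (ENSMUSG00000018486, chromosome 11, 103727364 to 103749821, minus strand) and Wnt3 (ENSMUSG00000000125, chromosome 11, 103774150 to 103817957, plus strand) are transcribed away from each other, with 24328 bases and no protein-coding gene between them. Wnt6 (ENSMUSG00000033227, chromosome 1, 74771892 to 74785322) and Wnt10a (ENSMUSG00000026167, chromosome 1, 74791516 to 74804179) both lie on the plus strand, with 6193 bases between them. The promoters of the chromosome 11 pair are shown because these neighbors had unlike levels, and that of Wnt7a, a ligand outside the list on chromosome 6, because it moved against Wnt3 in cultures with Wnt5a. The sequences are from RefSeq (GRCm38.p6), which held an entry for 5 of the 8 ligands, and they end before the annotated start of the gene. Capitals mark the CCAAT box (CCAAT) and the GC box (GGGCGG) on either strand.
Wnt3, chr11:103773925-103774149, plus strand: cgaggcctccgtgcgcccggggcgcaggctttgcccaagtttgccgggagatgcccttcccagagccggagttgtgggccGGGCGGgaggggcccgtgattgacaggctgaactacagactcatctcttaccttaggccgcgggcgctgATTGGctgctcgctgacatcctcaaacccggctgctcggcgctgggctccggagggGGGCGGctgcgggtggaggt
Wnt9b, chr11:103749822-103750071, minus strand: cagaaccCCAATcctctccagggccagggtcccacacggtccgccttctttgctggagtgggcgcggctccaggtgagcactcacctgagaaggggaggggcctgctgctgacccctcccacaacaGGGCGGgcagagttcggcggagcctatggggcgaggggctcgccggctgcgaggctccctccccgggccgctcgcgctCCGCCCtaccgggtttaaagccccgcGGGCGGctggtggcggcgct
Wnt7a, chr6:91411364-91411603, minus strand: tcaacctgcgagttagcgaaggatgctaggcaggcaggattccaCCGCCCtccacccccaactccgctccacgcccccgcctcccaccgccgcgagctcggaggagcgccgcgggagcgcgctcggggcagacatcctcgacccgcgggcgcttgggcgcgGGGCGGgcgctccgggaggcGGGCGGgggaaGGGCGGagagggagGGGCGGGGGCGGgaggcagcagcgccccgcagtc
All 3 windows were rich in G and C, at 68.9% for Wnt3, 72.0% for Wnt9b and 77.1% for Wnt7a. The GC box occurred 2 times before Wnt3, 3 times before Wnt9b and 6 times before Wnt7a. It is common, since between 29.2% and 32.7% of all promoters held it in windows of the same length. A CCAAT box stood before Wnt3, 71 bases from the start, and before Wnt9b, and was not in the window of Wnt7a; between 31.6% and 33.8% of promoters held it. Neither the TCF/LEF core CTTTGA nor the TEAD core GGAATG was found in these windows, against between 12.9% and 13.8% and between 11.6% and 12.6% of all promoters.

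Wnt3 was the most abundant of the 8 ligands in every condition. Since genes differ in length, levels of different ligands were compared per kb of coding sequence, the part in which reads were counted. In complete media + IgG, Wnt3 stood at 12.9 ± 3.22 CPM per kb (SD, n = 6), Wnt9b at 1.13 ± 0.537 and Wnt10a at 0.670 ± 0.601. Wnt3 alone made up 83.5% ± 5.80 of the summed level per kb of the 8 ligands there, and its share ranged from 72.3% ± 9.97 in Wnt5a + IgG to 88.3% ± 8.42 in QCM + IgG. The means of Wnt9b and Wnt10a lay within the sum of their SDs in all 6 conditions, and over the length of all exons their order in complete media + IgG turned around (Wnt10a at 0.339 and Wnt9b at 0.270 CPM per kb), so it was not resolved.

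**Figure D2:**
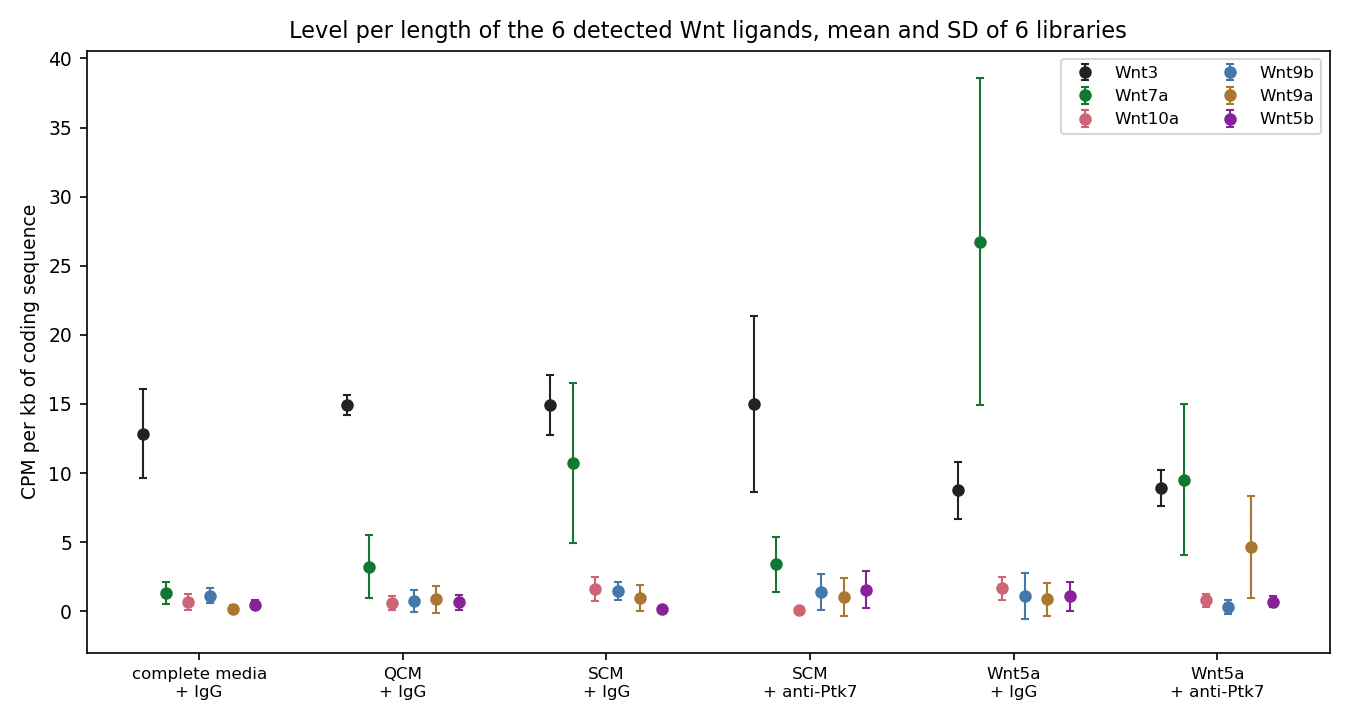
Level of the 6 detected Wnt ligands in CPM per kb of coding sequence (vertical axis) in the 6 conditions (horizontal axis), as the mean (dot) and SD (bar) of 6 libraries. Wnt3 stood highest in the conditions without Wnt5a protein, and Wnt7a, which is not in the list, reached 26.7 ± 11.9 CPM per kb in Wnt5a + IgG.

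Wnt3 was lower in the cultures with Wnt5a than in those with SCM. In complete media + IgG the libraries ranged from 8.26 to 16.8 CPM (median 14.6), and in QCM + IgG from 15.1 to 17.1 CPM (median 15.9). In SCM + IgG they lay between 13.6 and 19.4 CPM (median 15.3). In Wnt5a + IgG they lay between 5.82 and 11.7 CPM (median 10.03), so that all 6 were below the lowest library of SCM + IgG and of QCM + IgG, while the range overlapped that of complete media + IgG. With anti-Ptk7 the libraries ranged from 10.1 to 26.2 CPM (median 14.1) in SCM, the widest spread of Wnt3, and from 7.84 to 11.2 CPM (median 9.53) in Wnt5a. By their means the conditions were ordered as SCM + anti-Ptk7 (15.95 ± 6.79), QCM + IgG (15.9 ± 0.788), SCM + IgG (15.9 ± 2.29), complete media + IgG (13.7 ± 3.43), Wnt5a + anti-Ptk7 (9.48 ± 1.40) and Wnt5a + IgG (9.32 ± 2.22). The ranges of the libraries overlapped between each pair of neighbors in this order.

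A gene was called where the adjusted p was under 0.05 and the fold change over 1.5. Wnt3 was called in Wnt5a against SCM, with a log2 fold change of −0.77 (standard error, SE, 0.200, edgeR quasi-likelihood adjusted p = 0.0314), that is, 0.588 times the level in SCM. It was 1 of 4 tested members called there, where 0.69% of all genes were called. Against complete media the log2 fold change in Wnt5a was −0.55 (SE 0.201, edgeR quasi-likelihood adjusted p = 0.0453), which passed the adjusted p but not the fold change, and it passed both without complete media + IgG replicate 4 or 6 or Wnt5a + IgG replicate 2 or 5. The call in Wnt5a against SCM lay near the threshold. It was lost without SCM + IgG replicate 1, 4 or 6 or Wnt5a + IgG replicate 1, 4, 5 or 6, with a log2 fold change between −0.84 and −0.66 over all 36 omissions and an adjusted p of at most 0.105 (edgeR's quasi-likelihood test). Over all 6 conditions Wnt3 differed with an adjusted p of 0.00116 (edgeR's quasi-likelihood F test), a test that called 3 of the 4 tested members and 39.5% of all genes. The third was Wnt7b, and DESeq2 and quantile-normalized voom called Wnt3 and Wnt10a alone.

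The mean of Wnt3 was about the same with either antibody, but in SCM 3 libraries with anti-Ptk7 lay below the lowest and 2 above the highest library with IgG. The log2 fold change of anti-Ptk7 against IgG was 0.00 in SCM (interval of 1.96 SEs −0.39 to 0.39) and 0.02 in Wnt5a (−0.37 to 0.42). In bulk RNA, fewer cells of a type and less RNA per cell cannot be told apart, and Wnt3 comes with Paneth cells in the intestine. The 15 Paneth cell markers summed to between 3468 and 4689 CPM in SCM + IgG and to between 2172 and 4095 CPM in Wnt5a + IgG. Of the 10 that were tested, 0 were called in Wnt5a against SCM by edgeR, DESeq2 or voom, with 5 at an unadjusted p under 0.05, and their median log2 fold change was −0.34, against 0.02 for all genes. Lyz1, which encodes the Paneth cell lysozyme, had a log2 fold change of −0.50 there (edgeR quasi-likelihood adjusted p = 0.0273), again under the fold change. Against complete media, 3 of the 10 were higher in Wnt5a (Habp2, Mmp7 and Ang4) and 1, the α-defensin Defa26, was lower, where 10.2% of all genes were called. In the list 5 markers were under 0.5 CPM, of which Defa5 was at 0. Other markers moved in Wnt5a against SCM too, where 0.69% of all genes were called. Of 9 enteroendocrine markers Gcg (0.63) was higher and Reg4 (−0.81) lower, of 5 tested tuft cell markers Avil (1.45) was higher, of 9 enterocyte markers Apoa1 (−0.76) was lower, and of 8 fetal-like markers Clu (1.64) was higher. Of 9 goblet cell markers edgeR called none and DESeq2 1, with 5 at an unadjusted p under 0.05 and a median of −0.41. The part of these cell types in the level of Wnt3 was not tested.

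**Figure D3:**
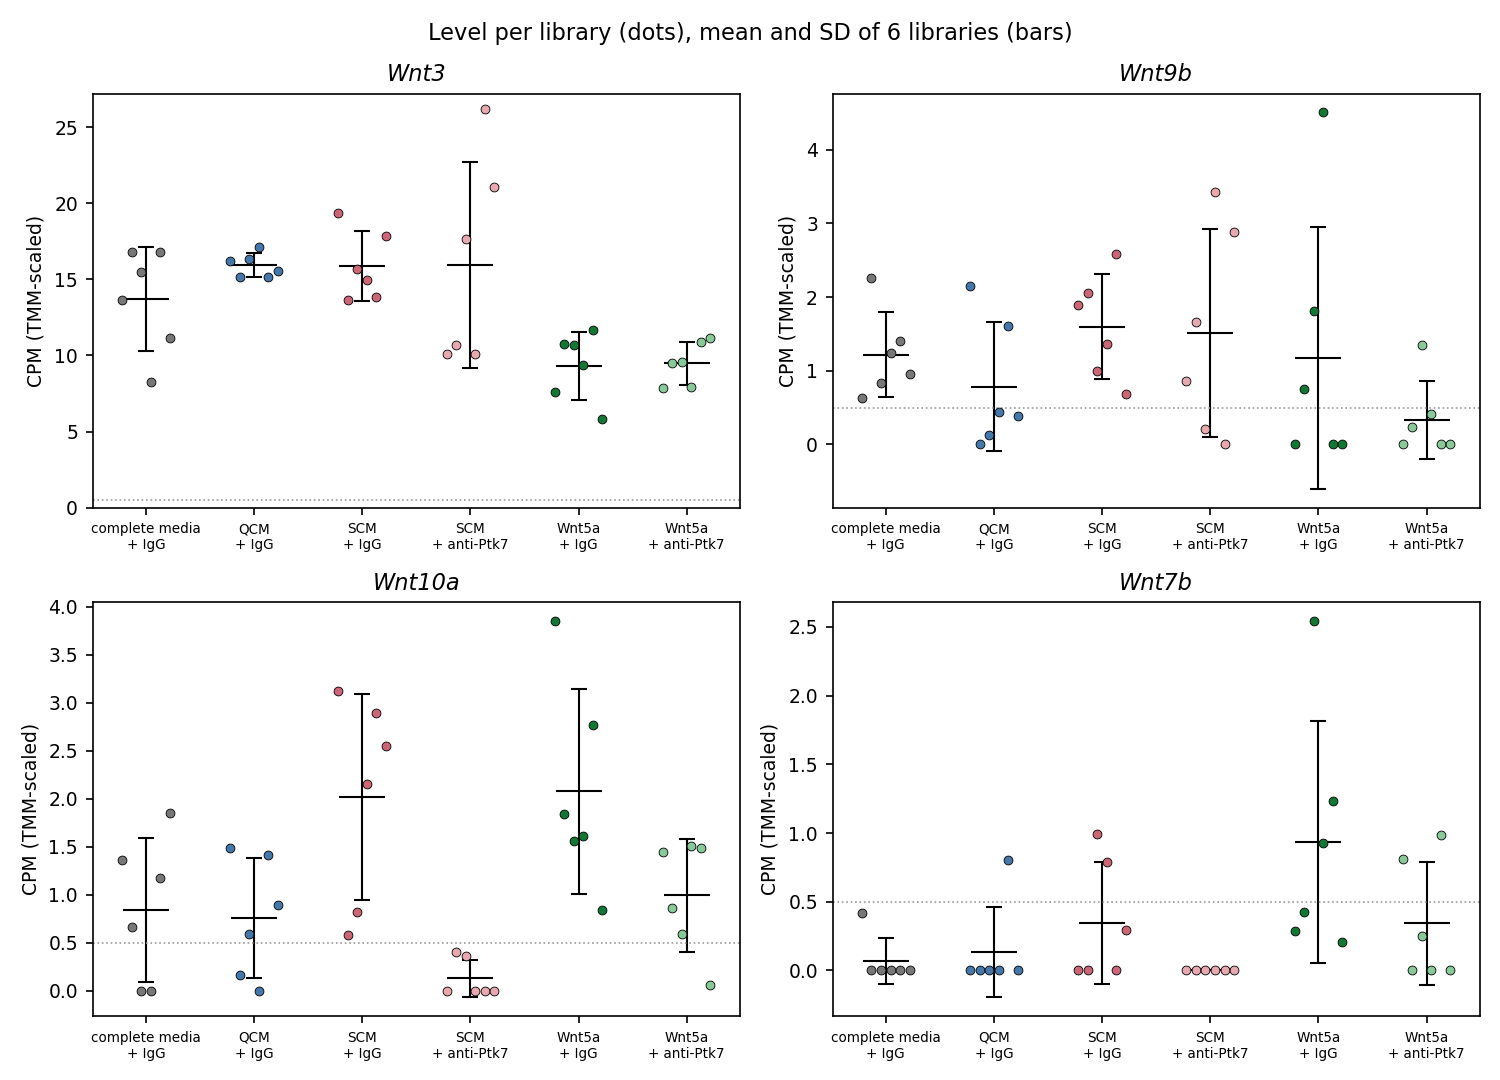
CPM of Wnt3, Wnt9b, Wnt10a and Wnt7b (vertical axes, each with its own scale) in each library (dots) of the 6 conditions (horizontal axis), with the mean and SD of 6 libraries (bars) and the limit of 0.5 CPM (dotted line). Wnt3 was lowest in both conditions with Wnt5a, and Wnt10a stayed at or under 0.400 CPM in all 6 libraries of SCM + anti-Ptk7.

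Wnt10a, a canonical ligand known from the development of teeth, hair and other ectodermal organs, was lower with anti-Ptk7 than with IgG in SCM. In SCM + IgG its libraries ranged from 0.579 to 3.12 CPM (median 2.35), with between 9 and 48 counts each. In SCM + anti-Ptk7 4 of the 6 libraries were at 0 and the highest stood at 0.400 CPM, with 6 counts. The groups did not overlap, and the means were 2.02 ± 1.08 and 0.126 ± 0.196 CPM (SD, n = 6). The log2 fold change was −3.82 (SE 0.917, edgeR quasi-likelihood adjusted p = 0.0180). This was the single member called of 4 tested, where 1.23% of all genes were called. Markers of other cell states moved in the same comparison. Of 8 tested fetal-like epithelial markers 1, Ly6a, was called lower and 6 had an unadjusted p under 0.05, with a median log2 fold change of −0.89 against 0.00 for all genes, and the list of 9 summed to between 1517 and 5335 CPM in SCM + IgG and to between 690.2 and 2843 CPM in SCM + anti-Ptk7. Of 9 enteroendocrine markers 2, Cck (−0.87) and Sct (−0.75), were called lower, and of 9 enterocyte markers 1, Alpi (−0.59). Their part in the level of Wnt10a was not tested. The call of Wnt10a held without each single library, with an adjusted p of at most 0.0437 (edgeR's quasi-likelihood test, without SCM + IgG replicate 1) and a log2 fold change between −4.58 (without SCM + anti-Ptk7 replicate 2) and −3.57, but was lost by voom with limma, at 0.0826 with quantile normalization and 0.0836 with TMM.

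In the Wnt5a cultures Wnt10a ranged from 0.842 to 3.85 CPM (median 1.72) with IgG and from 0.0624 to 1.51 CPM (median 1.15) with anti-Ptk7. These ranges overlapped, and the log2 fold change was −1.06 (SE 0.761, edgeR quasi-likelihood adjusted p = 0.570). The difference between the effects of the antibody in Wnt5a and in SCM was 2.76 on the log2 scale (SE 1.18). Its p was 0.0246 before and 0.999 after adjustment (edgeR's quasi-likelihood test), so a difference between the effects was not shown. In that test 0.0% of all genes and 0 of 4 members were called, and likewise 0 members by DESeq2 and by voom.

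Without the antibody against Ptk7, Wnt10a had higher means in SCM and Wnt5a than in complete media, but was not called. Complete media + IgG ranged from 0 to 1.85 CPM (median 0.913) with 2 libraries at 0, and QCM + IgG from 0 to 1.49 CPM (median 0.739) with 1 library at 0. The log2 fold changes against complete media were −0.14 in QCM, 1.25 in SCM and 1.30 in Wnt5a (SEs 0.790, 0.774 and 0.773, edgeR quasi-likelihood adjusted p = 0.970, 0.335 and 0.250). Against QCM it was 1.40 in SCM (SE 0.773, edgeR quasi-likelihood adjusted p = 0.362). Over all 6 conditions Wnt10a differed with an adjusted p of 0.0109 (edgeR's quasi-likelihood F test).

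Wnt9b, a canonical ligand known from the kidney tubules, was not called in any comparison. Its libraries ranged from 0.626 to 2.25 CPM (median 1.10) in complete media + IgG and from 0.686 to 2.59 CPM (median 1.62) in SCM + IgG, the 2 conditions in which all 6 libraries passed 0.5 CPM. They ranged from 0 to 2.15 CPM (median 0.413) in QCM + IgG and from 0 to 3.43 CPM (median 1.26) in SCM + anti-Ptk7. In Wnt5a + IgG 3 libraries were at 0 and the highest at 4.51 CPM, and replicate 4 alone held 65.8% of the counts. In Wnt5a + anti-Ptk7 3 were at 0 and the highest at 1.35 CPM. All 6 ranges overlapped. The largest difference was that of anti-Ptk7 against IgG in Wnt5a, with a log2 fold change of −1.85 (interval −3.87 to 0.17, edgeR quasi-likelihood adjusted p = 0.412). It rested on single libraries, at −0.65 without Wnt5a + IgG replicate 4 and at −3.11 without Wnt5a + anti-Ptk7 replicate 3. The test over all 6 conditions gave an adjusted p of 0.439 (edgeR's quasi-likelihood F test).

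Wnt7b, a ligand made by the epithelium of the lung and other organs, was under the detection limit over all libraries but reached 0.937 ± 0.881 CPM (SD, n = 6) in Wnt5a + IgG. All 6 libraries of this condition held counts, between 3 and 31 each, and ranged from 0.210 to 2.54 CPM (median 0.675). In complete media + IgG 1 library held 4 counts and 5 were at 0, and in QCM + IgG 1 held 12 counts and 5 were at 0. In SCM + IgG 3 libraries held between 3 and 17 counts and 3 were at 0, and in Wnt5a + anti-Ptk7 3 held between 3 and 14 counts and 3 were at 0. The log2 fold change in Wnt5a against complete media was 3.79 (SE 1.36, edgeR quasi-likelihood adjusted p = 0.0435), which was the single call of 4 members tested, where 10.2% of all genes were called. DESeq2 did not call it (adjusted p = 0.110), nor did the fit without a filter (edgeR quasi-likelihood adjusted p = 0.0898). The call was lost without 11 of the 36 libraries, which were all of complete media + IgG except replicate 1, Wnt5a + IgG replicates 1, 3, 4 and 5, SCM + IgG replicate 6 and Wnt5a + anti-Ptk7 replicate 3 (adjusted p at most 0.103, edgeR's quasi-likelihood test). Its log2 fold change was 3.22 without Wnt5a + IgG replicate 3, which held 40.3% of the counts of that condition, and 6.70 without complete media + IgG replicate 1, the one library of its group with counts. In the same comparison 3 of 5 tested tuft cell markers (Avil, Dclk1 and Trpm5), 8 of 8 fetal-like epithelial markers and 5 of 10 epithelial identity markers were called higher and none lower, and their part in the level of Wnt7b was not tested.

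In SCM + anti-Ptk7 all 6 libraries were at 0 for Wnt7b, against 31 counts in SCM + IgG. The pooled level in SCM + IgG, 0.377 CPM, was 9.97 times a floor of 3 counts over the 6 libraries, which is 0.0378 CPM. This ratio is not a lower bound, since it leaves out the spread between libraries. Replicate 3 of SCM + IgG alone held 54.8% of the 31 counts. The difference was not called (edgeR quasi-likelihood adjusted p = 0.119), and 3 libraries of SCM + IgG were themselves at 0. The coding sequence of Wnt7b overlaps the antisense gene AU022754, which held 0 counts; whether the counting used the strand is not given in the sources used here.

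**Figure D4:**
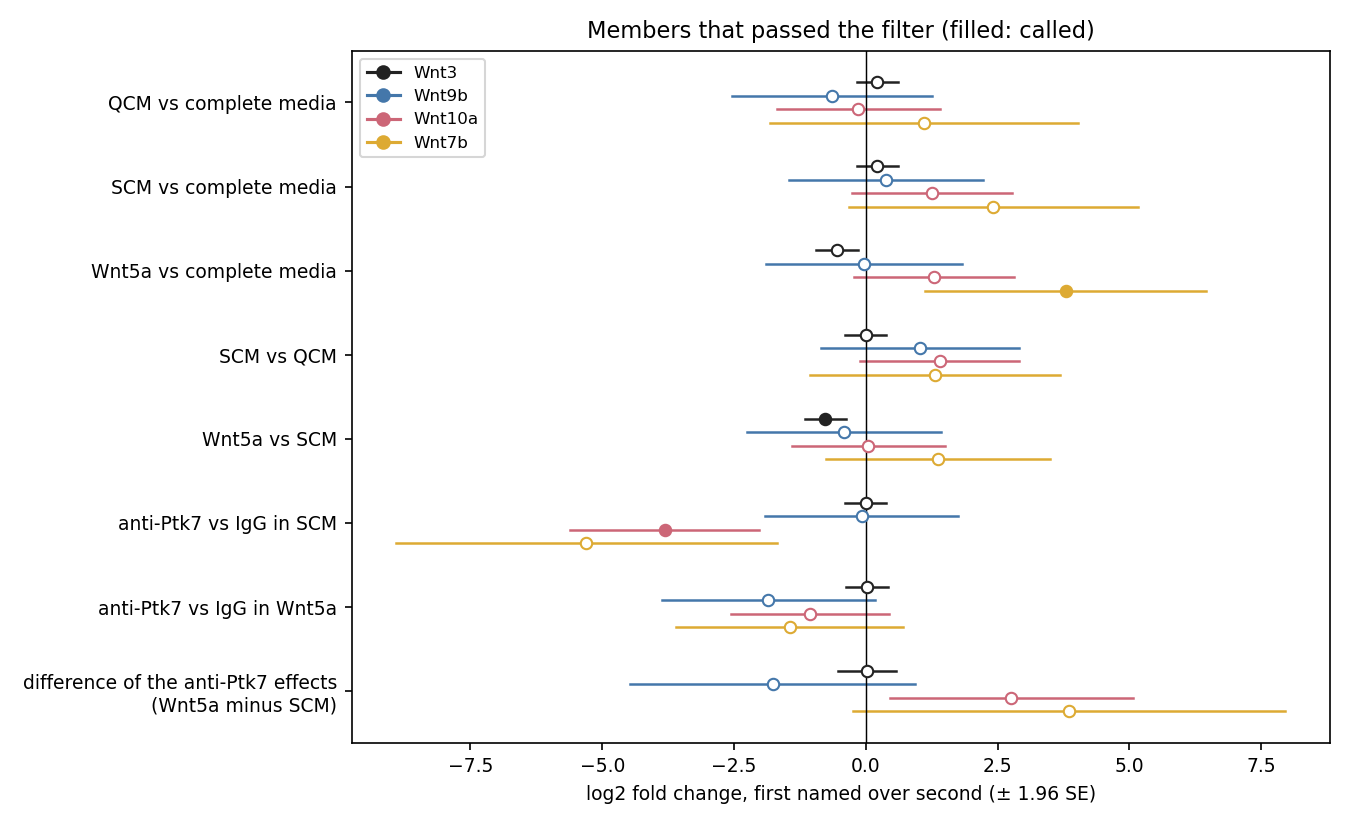
Log2 fold change (dot, horizontal axis) with an interval of 1.96 SEs (line) of the 4 listed ligands that passed the filter, in the 8 comparisons (vertical axis), with filled dots for calls. The intervals of Wnt3 are the narrowest, and those of Wnt7b span from −8.91 to −1.69 for anti-Ptk7 against IgG in SCM.

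In the remaining comparisons no member was called. These were QCM against complete media (0.374% of all genes called), SCM against complete media (6.08%), SCM against QCM (0.903%) and anti-Ptk7 against IgG in Wnt5a (0.884%), each with 0 of 4 members called by edgeR's quasi-likelihood test, 0 at an unadjusted p under 0.05, and 0 by DESeq2 and voom. The intervals still allow sizable differences for the low ligands. For SCM against complete media they were −0.17 to 0.61 for Wnt3, −1.46 to 2.23 for Wnt9b and −0.26 to 2.77 for Wnt10a on the log2 scale.

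The other 4 members did not pass the filter, and their counts are a description. Wnt6 held counts in all 6 libraries of SCM + IgG, from 0.0717 to 0.932 CPM (median 0.652), and in none of Wnt5a + IgG. With 52 counts against 0, its pooled level in SCM + IgG was 18.4 times the floor of 3 counts in Wnt5a + IgG. That ratio leaves out the spread between libraries and is not a lower bound. The remaining conditions held between 15 and 35 counts over their 6 libraries, and Wnt6 in Wnt5a + anti-Ptk7 ranged from 0 to 0.375 CPM.

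The transcript of Wnt5a itself was not detected, also not in the cultures that received the recombinant protein. In Wnt5a + IgG and in SCM + anti-Ptk7 all 6 libraries were at 0, which allows up to 0.0344 and 0.0378 CPM at 3 counts over 6 libraries. Its 49 counts lay in 8 libraries, of which 2 of Wnt5a + anti-Ptk7 held 25. Wnt4, known from the kidney and the female reproductive tract, had at most 5 counts in a library and counts in 10 libraries. Wnt11, the other noncanonical ligand of the list, had counts in 6 libraries and at most 10. Floors of this kind cover counting error only.

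Markers of other cell types bear on ligands that can come from the mesenchyme. Of 15 fibroblast and mesenchymal markers 13 were under 0.5 CPM, and Col3a1, Col6a1, Dcn, Thy1 and Foxl1 were at 0 in all libraries. Their sum ranged from 0.996 to 10.7 CPM over the 36 libraries. The 2 tested were Pdgfrb and Vim, and with anti-Ptk7 against IgG in SCM they had log2 fold changes of 1.88 and −1.04 (edgeR quasi-likelihood adjusted p = 0.0927 and 0.197), of which DESeq2 called Pdgfrb. Of 9 immune cell markers 6 were under 0.5 CPM, among them Adgre1, a macrophage marker, at 0 in all libraries, and 3 were over it. The list summed to between 10.6 and 20.7 CPM over the 36 libraries, and 0 of the 3 tested were called in any pair of conditions compared by edgeR, DESeq2 or voom, with at most 1 at an unadjusted p under 0.05, while the test over all 6 conditions called 1 by edgeR and DESeq2. All 10 epithelial identity markers were detected, with sums between 9874 and 36337 CPM.

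Among the 11 Wnt genes outside the list, 3 were detected. Wnt7a (9.59 ± 10.8 CPM, SD, n = 36), a ligand known from limb and female reproductive tract development, was second to Wnt3 per kb in complete media + IgG and first in Wnt5a + IgG. Its libraries ranged from 0 to 2.502 CPM (median 1.48) in complete media + IgG, from 4.89 to 20.9 CPM (median 11.4) in SCM + IgG and from 14.6 to 45.2 CPM (median 24.9) in Wnt5a + IgG, and neither of the latter overlapped the first. Wnt7a was called in SCM (log2 fold change 3.01, SE 0.539, edgeR quasi-likelihood adjusted p = 0.000230) and in Wnt5a (4.33, SE 0.551, adjusted p = 6.66e-07) against complete media. With anti-Ptk7 the libraries ranged from 1.28 to 6.78 CPM in SCM and from 4.65 to 20.5 CPM in Wnt5a. The log2 fold changes were −1.66 and −1.49 (SEs 0.488 and 0.463, edgeR quasi-likelihood adjusted p = 0.0556 and 0.0757), neither of them called, with all but 1 library of each antibody group below the lowest library with IgG. The calls depended on the model fitted, since DESeq2 called that in SCM (adjusted p = 0.0420) and voom with limma that in Wnt5a (adjusted p = 0.0162 with quantile normalization and 0.0160 with TMM). With the replicate number as a block, an alternative described below, edgeR called both. The difference in SCM was also called without SCM + IgG replicate 2 or 3, SCM + anti-Ptk7 replicate 5, complete media + IgG replicate 3, Wnt5a + IgG replicate 1 or Wnt5a + anti-Ptk7 replicate 1, and that in Wnt5a without Wnt5a + anti-Ptk7 replicate 1. Against QCM, Wnt7a in SCM had a log2 fold change of 1.72 (edgeR quasi-likelihood adjusted p = 0.0567, DESeq2 adjusted p = 0.0314), and in Wnt5a against SCM of 1.32 (edgeR quasi-likelihood adjusted p = 0.102, voom adjusted p = 0.0275 with quantile normalization). The fit with the replicate block called these differences too. Fetal-like epithelial markers such as Clu moved with Wnt7a, and their part in it was not tested. Of 8 tested, 7 were higher in SCM and 8 in Wnt5a against complete media, where 6.08% and 10.2% of all genes were called, and the list of 9 summed to between 283.1 and 1291 CPM in complete media + IgG and to between 3948 and 11725 CPM in Wnt5a + IgG.

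Shares describe the make-up of the Wnt transcripts. Of the summed level per kb of all 19 ligands, Wnt3 held 74.2% ± 10.4 (SD, n = 6) in complete media + IgG, 69.9% ± 12.4 in QCM + IgG and 50.1% ± 10.3 in SCM + IgG, but 22.8% ± 7.93 in Wnt5a + IgG. Wnt7a held 7.59% ± 4.10 in complete media + IgG and 63.2% ± 10.7 in Wnt5a + IgG. With anti-Ptk7 the share of Wnt3 was 65.3% ± 14.3 in SCM and 37.6% ± 11.1 in Wnt5a, and that of Wnt7a 14.4% ± 6.12 and 34.9% ± 7.89. A share depends on every ligand in the sum, and these were not tested.

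Wnt9a averaged 1.57 ± 2.45 CPM (SD, n = 36) and was highest in Wnt5a + anti-Ptk7, from 1.18 to 12.7 CPM (median 3.74), against 0 to 3.56 CPM (median 0.637) in Wnt5a + IgG (log2 fold change 2.44, edgeR quasi-likelihood adjusted p = 0.191). It was 1.93 without Wnt5a + anti-Ptk7 replicate 1 and 3.50 without Wnt5a + IgG replicate 1, with neither called. By voom with limma this difference of Wnt9a was called, with an adjusted p of 0.0304 after quantile normalization and of 0.0370 with TMM. Wnt5b, a relative of Wnt5a, averaged 0.862 ± 0.937 CPM and was called higher with anti-Ptk7 than with IgG in SCM (log2 fold change 3.43, SE 0.972, edgeR quasi-likelihood adjusted p = 0.0474), a call that voom did not make (adjusted p = 0.123 with quantile normalization and 0.0911 with TMM) and that was lost without a filter (edgeR quasi-likelihood adjusted p = 0.0727). Its libraries ranged from 0.427 to 3.93 CPM (median 1.05) there and from 0 to 0.588 CPM in SCM + IgG, and the call was lost in 24 of the 36 omissions of a library (adjusted p up to 0.124, edgeR's quasi-likelihood test). The other 8 were not detected, and Wnt1, Wnt3a and Wnt16 were at 0 in all 36 libraries, which allows up to 0.00615 CPM at 3 counts.

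Of 14 genes for secretion and processing 13 were tested, and 2 were higher in Wnt5a against complete media while 0 were lower, where 10.2% of all genes were called. Over all 6 conditions 6 of the 13 differed, against 39.5% of all genes. The 2 were Wls, the carrier, with a log2 fold change of 0.62 (SE 0.107, edgeR quasi-likelihood adjusted p = 6.49e-05), and the protease Furin, with 0.87. Wls ranged from 68.3 to 87.9 CPM (median 84.1) in complete media + IgG and from 102 to 145 CPM (median 121) in Wnt5a + IgG, without overlap. Porcn had a mean of 3.70 ± 1.35 CPM in complete media + IgG and 6.00 ± 2.11 CPM in Wnt5a + IgG and was not called (edgeR quasi-likelihood adjusted p = 0.137). In the other 6 comparisons between conditions none of the 13 was called by edgeR, DESeq2 or voom, with at most 4 at an unadjusted p under 0.05.

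Most secreted modulators, listed together with the membrane receptors Kremen1 and Kremen2, were not detected. Of 19 genes 16 were under 0.5 CPM, among them the R-spondins Rspo1, Rspo2, Rspo3 and Rspo4 and the inhibitors Dkk1, Dkk2, Dkk3, Dkk4, Sfrp1 and Wif1. Of the 4 tested, Kremen2, a receptor of Dkk proteins, was higher in SCM and in Wnt5a than in complete media, with log2 fold changes of 1.77 and 2.12 (SEs 0.508 each, edgeR quasi-likelihood adjusted p = 0.0187 and 0.00245). In these comparisons 6.08% and 10.2% of all genes were called, and by voom the call of Kremen2 was lost in SCM. No other gene of this list was called by edgeR between conditions. Of 21 receptors and co-receptors 18 were tested, and in Wnt5a against complete media Ptk7 (0.79) and Rnf43 (0.62), a ligase that removes Frizzled from the cell surface, were higher and 0 were lower, again where 10.2% of all genes were called. Over all 6 conditions 8 of the 18 differed, against 39.5% of all genes. In the other comparisons between conditions edgeR called no receptor, with at most 5 at an unadjusted p under 0.05, and DESeq2 and voom each called 1, in SCM against complete media.

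Of 19 canonical Wnt targets 18 were tested. In Wnt5a against complete media 6 were higher, led by Nkd1 (1.71), Tnfrsf19 (1.47) and Cd44 (1.21), and 1, Smoc2 (−0.67), was lower, where 10.2% of all genes were called, and by voom 3 were called in place of 7. In SCM against complete media 2 were higher, Nkd1 (1.94) and Cd44 (0.80), and 1, Smoc2 (−0.77), was lower, where 6.08% of all genes were called. The median log2 fold change of the list was 0.47 in Wnt5a and 0.45 in SCM, against 0.01 for all genes in each. Against QCM the median in SCM was 0.16, with 1 gene (Cd44) called, where 0.903% of all genes were called. The list summed to a median of 2939 CPM in complete media + IgG, 2862 CPM in SCM + IgG and 2973 CPM in Wnt5a + IgG. Of 21 noncanonical components 17 were tested. In Wnt5a against complete media 4 were higher, led by the transcription factor Nfatc2 (2.24) and the polarity protein Vangl1 (1.41), and in SCM 2 were higher, the same Nfatc2 (1.54) and Vangl1 (1.04), beside the same 10.2% and 6.08% of all genes. All comparisons with complete media share its 6 libraries. With anti-Ptk7 against IgG, no gene of the canonical or the noncanonical list was called in either medium by edgeR, DESeq2 or voom, with at most 5 of a list at an unadjusted p under 0.05.

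For each detected member the protein-coding genes over 1 CPM with the most similar log2 CPM over the 36 libraries were listed, out of 11541. The points share conditions and library depth, so the correlations are descriptive. Wnt3 was most like Tsen34 (Pearson's r = 0.738, Spearman's rho = 0.747), Gchfr (0.726 and 0.648) and 9130401M01Rik (0.724 and 0.724), and with the condition means removed r was 0.522, 0.412 and 0.529. Wnt10a was most like Emp2 (0.751 and 0.795), Reep5 (0.714 and 0.774) and Rnf19a (0.707 and 0.713), with r of 0.431, 0.474 and 0.470 after removal of the means. Wnt9b was most like Aasdhppt (0.649 and 0.578), Zfp119b (0.640 and 0.645) and Etfrf1 (0.620 and 0.545), with r of 0.563, 0.519 and 0.554 after removal. No Wnt ligand was among these genes.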

How the data were processed

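The authors sequenced cDNA made from little RNA (Smart-Seq V4, Nextera XT), aligned reads with GSNAP 2013-11-01 through HTSeqGenie to mm10 and deposited counts per gene in coding sequences, as whole numbers without normalization. The annotation and strand setting are not given in the sources used here. Names, positions and lengths were taken from GENCODE M21 (GRCm38), in which 233 identifiers had no symbol. Groups and replicate numbers follow the labels. With R 4.3.3 and edgeR 4.0.16, filterByExpr kept 15497 genes, and TMM-scaled counts (factors 0.908 to 1.03) were fitted with glmQLFit in one model of 6 condition means and tested with glmQLFTest. P-values were adjusted over all genes by Benjamini-Hochberg; calls took 0.05 as the limit of the adjusted p together with a 1.5-fold change, except in the test over all conditions. Standard errors are the log2 fold change over the root of F. Log2 CPM used a prior count of 2. The tests were tested on simulated data. Alternatives used limma 3.58.1 (voom) and DESeq2 1.42.0, other scalings and filters, glmTreat, only the groups compared, a replicate block, and each library left out.

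The members and all lists were chosen with earlier results of these data known. Named are the Wnt genes, up to 3 called genes of largest change per list and comparison, defining markers, and 3 genes most like each detected member; Lyz1 and Porcn were chosen after their values were seen. Replicates come from cultures of 6 mice, and p-values measure the spread between these libraries.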

Additional observations from a re-analysis of the deposited data

Results flagged for a closer look

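Within a condition of 6 libraries, 1 library stood apart from the others by Dixon's criterion in 6 of 41 groups tested. The criterion flags about 5% of groups by chance only for normally distributed values, which these low counts are not. With 5 libraries at 0, any count in the remaining library is flagged, so the flagged groups cannot be set against 5%. Wnt9b stood at 1.35 CPM in Wnt5a + anti-Ptk7 replicate 3, with 16 counts, and between 0 and 0.411 CPM in the others. For Wnt7b, the 1 library with counts was complete media + IgG replicate 1, at 0.417 CPM with 4 counts, and QCM + IgG replicate 5, at 0.807 CPM with 12 counts. For Wnt9a, complete media + IgG replicate 1 stood at 0.834 CPM, against at most 0.156 CPM in the others. Wnt9a also stood apart in SCM + anti-Ptk7 replicate 4, at 4.09 CPM against at most 1.13, and in Wnt5a + IgG replicate 1, at 3.56 CPM against at most 0.923. The highest library of Wnt9a held 8, 56 and 37 counts in these groups. No library stood apart in this way for Wnt3 or Wnt10a.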

How the results depend on the processing

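For Wnt5a against complete media, 1 member was called, but 2 with library size alone, with voom on quantile-normalized values and with no fold-change cutoff (Wnt3 beside Wnt7b), and 0 with DESeq2, with glmTreat, and, because Wnt7b was then not tested, with at least 10 counts in every library and with only the groups compared. Without a filter the count was also 1, but the member was Wnt6 and not Wnt7b (edgeR quasi-likelihood adjusted p = 0.0898 for Wnt7b). For Wnt5a against SCM, 1 was called (Wnt3), but 2 without a filter (Wnt6 beside it) and 0 with glmTreat and with only the groups compared. For anti-Ptk7 against IgG in SCM, 1 was called (Wnt10a), but 0 by voom with either normalization, with glmTreat, and, because Wnt10a was then not tested, with at least 10 counts in every library and with only the groups compared. Over all conditions, 3 were called, but 5 without a filter, 2 with DESeq2 and with voom on quantile-normalized values, which lost Wnt7b, and 1 with at least 10 counts in every library. With each library left out, the counts ranged from 0 to 2 for Wnt5a against complete media and from 0 to 1 for Wnt5a against SCM. Apart from the filters, which change the genes tested, the cause was not tested. Of 2914 values of single ligands under an alternative, 2816 stayed on their side of the thresholds, 60 lost a call, 38 gained one and 0 reversed a called direction, while 107 uncalled values changed sign. All 288 alternative levels moved by less than 1 SD. Leaving out 1 of 6 libraries cannot move a mean that far, and the remaining alternatives only rescaled the libraries. This count therefore says little about how stable the levels are.

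Libraries with the same replicate number correlated by 0.092 in their deviations, against −0.018 for others, and 34 of 90 pairs were over 0.1. Since neither every pair was over 0.1 nor a source ties a number to a mouse, the replicate block was kept as an alternative, although 16 of 36 libraries correlated best with their own number, a hint of pairing from the data. With the replicate block the members called were the same in every comparison (Wnt10a, log2 fold change −3.59, edgeR quasi-likelihood adjusted p = 0.0158 for anti-Ptk7 in SCM), and ligands outside the list gained calls. These were Wnt7a for anti-Ptk7 in SCM (edgeR quasi-likelihood adjusted p = 0.000877) and in Wnt5a (0.00181), for SCM against QCM (0.000221) and for Wnt5a against SCM (0.00558), and Wnt9a for anti-Ptk7 in Wnt5a (0.0242). All genes called for anti-Ptk7 in SCM rose from 190 to 399. At these depths, 1 or 2 counts in a library are under the floor of 3 counts.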
